A study of Bubalus bubalis with 8 samples.

Results

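Prolactin and growth hormone signalling was followed through 8 genes in buffalo mammary epithelial cells (MECs) recovering from heat: the receptors PRLR and GHR, the transcription factors STAT5A, STAT5B and ELF5, and the feedback inhibitors CISH, SOCS2 and SOCS3. They are 8 of the 24839 gene names on the array. Members were chosen by gene name, which gave 14 probes, and 12 of these, for 7 genes, were used. Both ELF5 probes lie in rows 216 to 330 and columns 30 to 59 of the array, a stretch that was dark on the control array, and were left out of every count.

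Both hormones act through a single-pass receptor that has no kinase of its own. Binding brings the tyrosine kinase JAK2 into action, and JAK2 phosphorylates STAT5A and STAT5B, which enter the nucleus and switch on target genes. In the mammary gland these include the caseins and the whey proteins, and the epithelial factor ELF5 acts alongside STAT5 in the secretory alveolar cells. CISH, SOCS2 and SOCS3 are themselves STAT5 or STAT3 targets, and their proteins bind the receptors or JAK2 and damp the signal.

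The cells were a primary culture of Bubalus bubalis MECs from the mammary tissue of a single adult animal, used after passage 10 in collagen-treated plates. CTR cells were kept at 37°C throughout. The paper describes control plates collected alongside the treated ones, but the label of the CTR array gives no collection time. Time in culture and recovery from heat therefore cannot be told apart in a change from CTR. The other cells were exposed to 42°C for 1 h, returned to 37°C and collected at 7 time points, from 30 min, 2 h and 4 h through 8 h and 12 h up to 16 h and 24 h of recovery. Whether prolactin or growth hormone was in the medium is not given in the sources used here. Each condition was read on 1 single-colour Agilent bovine array, 8 arrays in all, so no difference between conditions could be tested. Precision is limited by that number of arrays.

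A level is the log2 signal of a probe relative to the 75th percentile of its array, and a change is the level at a time point minus that in CTR. The error given with a change is the SD between repeated spots of a probe, pooled over the repeated probes of an array and combined over both arrays. At 30 min, where the levels used have no separate spots, the SD of CTR (0.21) stood in for that array, so the 30 min error is borrowed. The error covers spot error only and is smaller than the spread between cultures would be. Probes were designed on cattle transcripts, so a level can also depend on how well a buffalo transcript pairs with its probe. Because each array measured a whole culture, fewer cells expressing a gene and less RNA per cell cannot be told apart.

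The arrays lay on 2 slides of 4 arrays. Slide 1 held CTR with 8 h, 12 h and 24 h. Slide 2 held 30 min, 2 h, 4 h and 16 h, so for these time points heat and slide cannot be told apart. Whether the RNA of both slides came from the same culture was not tested. Between 23.3% and 40.2% of probes were well above background on an array. The 30 min levels came from the authors' deposited log2 values, because the 30 min scanner intensities followed those values poorly (Pearson r across genes 0.219, against 0.99996 to 1 for the other time points). The slide of 30 min is that of the scanner data, and whether the deposited 30 min values came from that array was not tested. The heat shock list was highest at 8 h, with 6 of its 10 genes at least 3-fold above CTR. Keratins and other mammary epithelial genes were well above background for 6 or 7 of 7 genes on every array, while KRT18 was so at 2 h and 16 h only. The epithelial markers' summed level was 432 to 649 times the 75th percentile on slide 1 and 220 to 491 times on slide 2. KRT8 was at least 3-fold lower than CTR on every array of slide 2, and KRT5 at 2 h (-1.87). The median change of the epithelial probes bright on both arrays was -1.30 (30 min), -1.57 (2 h), -0.90 (4 h) and -0.14 (16 h). On slide 1 it was -0.59 (8 h), -0.56 (12 h) and -0.41 (24 h), with no gene at 3-fold. The slides also differed in other markers. Each sum covers only what was well above background on its array, and detection limits differ between arrays, so small sums cannot be ordered. The summed level of the milk protein probes was 3.98 to 4.93 times the 75th percentile on slide 1 and 104 to 2846 times on slide 2. No adipocyte probe was well above background on slide 1, and the sum on slide 2 was 41.8 to 52.7, through FABP4 alone, with ADIPOQ, LEP and PLIN1 not well above background on any array. The leukocyte probes summed to 11.0 to 18.6 on slide 1 and to 19.4 to 71.5 on slide 2, and the fibroblast probes to 5.79 to 7.60 on slide 1. On slide 2 the fibroblast sum was highest at 16 h (162), then 13.7 at 4 h with 1.45 at 2 h, and no fibroblast probe was well above background at 30 min. No endothelial probe was well above background on slide 1, and 1 or 2 of 10 were on each array of slide 2, with CDH5 not well above background on any array. What part these markers have in the values below was not tested.

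The probes decide which of these genes could be seen, so the sequences of 6 of them are shown as printed on the array, each 60 bases long. Positions are those of the array annotation on the cattle build it names, Btau_3.1. The STAT5A pair and the ELF5 pair are shown because probes of 1 gene gave different results or were left out, and the PRLR and SOCS3 probes because they were not well above background anywhere. No base is marked in capitals.
STAT5A A_73_P250836, chr19:43747685-43748744, plus strand: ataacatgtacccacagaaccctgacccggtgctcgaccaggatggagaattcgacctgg
STAT5A A_73_P053856, chr19:43734488-43734547, plus strand: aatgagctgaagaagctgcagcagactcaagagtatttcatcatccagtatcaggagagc
ELF5 A_73_P347736, chr15:64736777-64743285, minus strand: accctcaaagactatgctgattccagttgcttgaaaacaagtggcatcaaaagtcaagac
ELF5 A_73_P034886, chr15:64735698-64735757, minus strand: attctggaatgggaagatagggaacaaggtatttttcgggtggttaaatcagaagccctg
PRLR A_73_P070046, chr20:41476737-41476796, plus strand: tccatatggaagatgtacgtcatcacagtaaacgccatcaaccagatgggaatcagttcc
SOCS3 A_73_P044671, chr19:55418135-55418194, plus strand: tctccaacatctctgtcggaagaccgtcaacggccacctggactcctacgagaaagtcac
Each of these has at least 1 forward reading frame without a stop codon. The STAT5A probe A_73_P250836 covers 1060 bases of the assembly and the ELF5 probe A_73_P347736 covers 6509, so each bridges sequence that is absent from its transcript. The STAT5A probe A_73_P053856 is listed with 2 transcripts, 1 of STAT5A and 1 of STAT5B, and cannot tell the genes apart.

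Of the 12 probes, 2 were well above background on all 8 arrays (STAT5B and SOCS2), 3 on some arrays (GHR, STAT5A and CISH) and 7 on none.

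**Figure D1:**
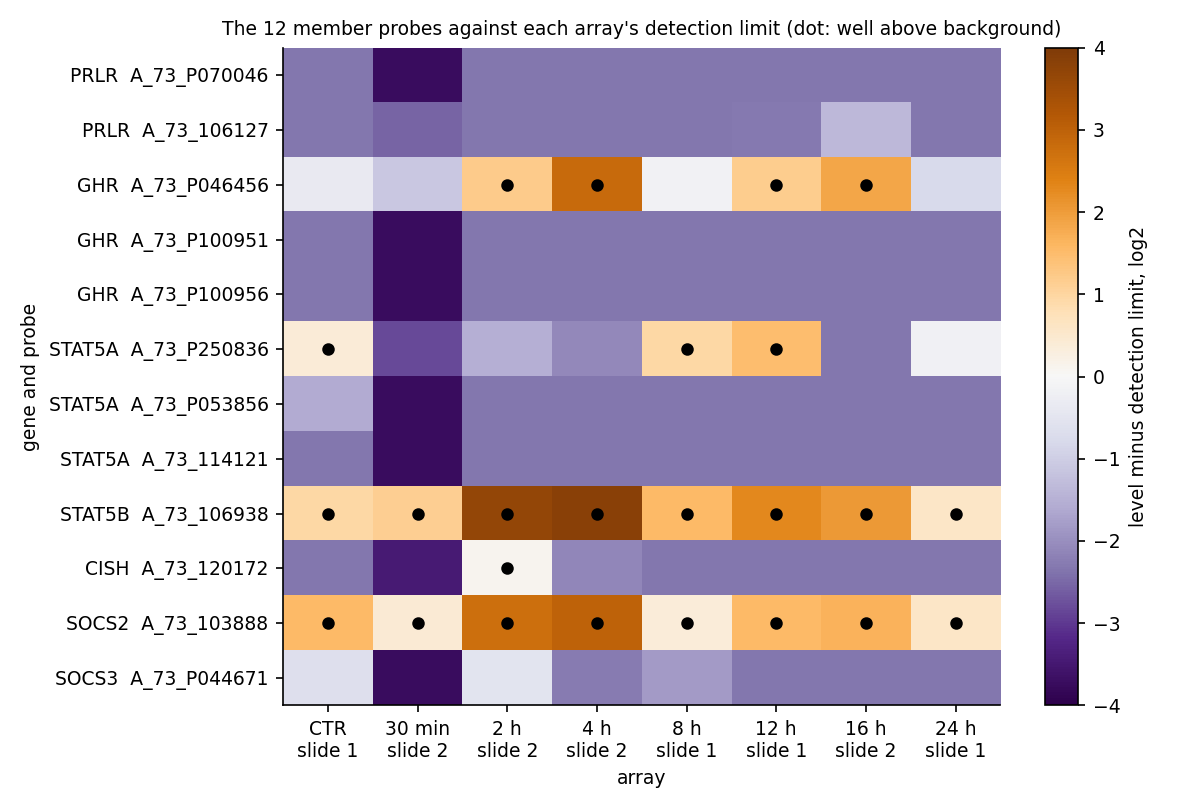
Level of each of the 12 member probes minus the detection limit of the array (log2, colour), by array and slide, with a dot where the probe was well above background. The dots fill the rows of STAT5B and SOCS2, and 7 rows hold none.

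PRLR, which binds prolactin, was not well above background on any array with either of its 2 probes. The probe A_73_P070046 read -2.51 in CTR and between -4.27 and -2.08 on the others. The second PRLR probe, A_73_106127, reached its highest level of -1.44 at 16 h, below that array's detection limit of -0.07. These readings limit the signal at those probes and give no fold for PRLR at any time point.

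GHR, which binds growth hormone, was bright at 4 h and 16 h. Its probe A_73_P046456 (chr20:33896819-33896878, minus strand) read -0.55 in CTR, and on the same slide -0.52 (8 h), 0.13 (12 h) and -0.54 (24 h). On slide 2 it read -0.88 (30 min), -0.75 (2 h), 1.09 (4 h) and 1.79 (16 h). It was well above background at 2 h, 4 h, 12 h and 16 h, and the readings of CTR, 30 min, 8 h and 24 h were below their limits. Against CTR's detection limit, GHR was at least 3.96-fold higher at 16 h, at least 2.45-fold higher at 4 h and at least 1.25-fold higher at 12 h. Bright probes within 10 spots of it were also higher than in CTR, by a median of 0.57 at 16 h and 0.38 at 4 h, and with that shift subtracted the bounds were 2.66-fold and 1.88-fold. The probe lies near the dark stretch of the CTR array.

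Within slide 2 the GHR difference did not involve CTR. The 16 h level was above the 2 h level by 2.54 ± 0.57 (5.82-fold), and the 4 h level by 1.85 ± 0.41 (3.59-fold). Neighbouring bright probes differed by medians of 0.54 and 0.42 in the same pairs, less than GHR did. The 16 h and 4 h levels differed by 0.69 ± 0.58, little more than the spot error. On this slide the 30 min and 2 h arrays therefore held low GHR readings and the other arrays high ones. The 4 h and 16 h arrays also carried the highest milk protein sums, 1559 and 2846, against 201 at 30 min and 104 at 2 h. Their fibroblast sums were 13.7 and 162, against 1.45 at 2 h, with no fibroblast probe bright at 30 min. Which of these signals GHR goes with was not tested. The other GHR probes, A_73_P100951 and A_73_P100956, target transcript variants, overlap each other on the assembly and were at the floor of every array.

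STAT5A and STAT5B are the factors that both receptors activate. STAT5B read higher on slide 2, while STAT5A was well above background on arrays of slide 1 only. STAT5B, read by A_73_106938 (chr19:43655286-43655345, minus strand), was well above background on all 8 arrays. On slide 1 its level was 0.76 in CTR, 1.18 (8 h), 1.27 (12 h) and 0.82 (24 h). On slide 2 it read 1.38 (30 min), 1.71 (2 h), 2.09 (4 h) and 1.98 (16 h). The 4 arrays of slide 2 all lay above the 4 of slide 1, with means of 1.79 and 1.01. Among the 7250 probes well above background on all 8 arrays, 11.1% had every slide 2 array above every slide 1 array and 12.4% had every one below, so this order was shared by many probes. Detection of STAT5B rests on A_73_106938. Neither A_73_P053856, listed with both STAT5 genes, nor A_73_P206297, on a predicted STAT5B transcript, was well above background on any array.

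The change of STAT5B was 0.63 ± 0.30 at 30 min and 0.96 ± 0.35 at 2 h, and it was larger, 1.33 ± 0.36 at 4 h and 1.22 ± 0.54 at 16 h. At 8 h and 12 h, which shared the slide of CTR, it was 0.42 ± 0.28 and 0.51 ± 0.33, and at 24 h it was 0.06 ± 0.36. STAT5B was thus above CTR by more than the spot error from 2 h through 16 h, and by less at 24 h. At 30 min the change also exceeded its error, which is borrowed. At no time point did STAT5B reach 3-fold, the largest change being 2.51-fold at 4 h. Scaled to each array's median instead, it read 1.66 at 2 h and 2.42 at 4 h, past 3-fold, and -0.37 at 24 h, while the median of all bright probes stood at 0.29, 0.91 and -0.56. Bright neighbours changed by medians of -0.24 to 0.20 over the 7 time points. Within slide 2, the 4 h level was above the 30 min level by 0.70 ± 0.36, and within slide 1, the 24 h level was below the 12 h level by 0.45 (error 0.39).

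STAT5A was seen on slide 1 only. Its probe A_73_P250836 read 0.18 in CTR, and on the same slide 0.58 (8 h), 0.43 (12 h) and 0.05 (24 h). On slide 2 it read -2.57 (30 min), -3.48 (2 h), -3.80 (4 h) and -2.39 (16 h). It was well above background in CTR, 8 h and 12 h, lay just under the limit of 0.24 at 24 h, and was not well above background on any array of slide 2. Against the detection limits, STAT5A was at least 4.39-fold lower at 2 h and at least 3.75-fold lower at 4 h. At 16 h the bound was 1.19-fold, and at 30 min the limit of 0.24 was above the CTR level and no fold can be given. Bright neighbours of the probe were lower than in CTR by medians of -0.56 at 2 h and -0.68 at 4 h, and with this subtracted the bounds became 2.97-fold and 2.34-fold. On the log2 scale, median scaling put the bounds at -1.43 (2 h) and -0.82 (4 h), and normexp background correction put that of 2 h at -1.50, each short of 3-fold.

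On slide 1, where levels could be compared directly, STAT5A differed little. The change from CTR was 0.40 ± 0.28 at 8 h and 0.25 ± 0.33 at 12 h, the second within the spot error. The other STAT5A probes were not well above background on any array. A_73_P053856 was highest in CTR at -1.77, and A_73_114121 (chr19:43748935-43748993, plus strand) stayed at the floor of every array. The probes of STAT5A therefore disagreed on whether the transcript was above background in CTR.

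**Figure D2:**
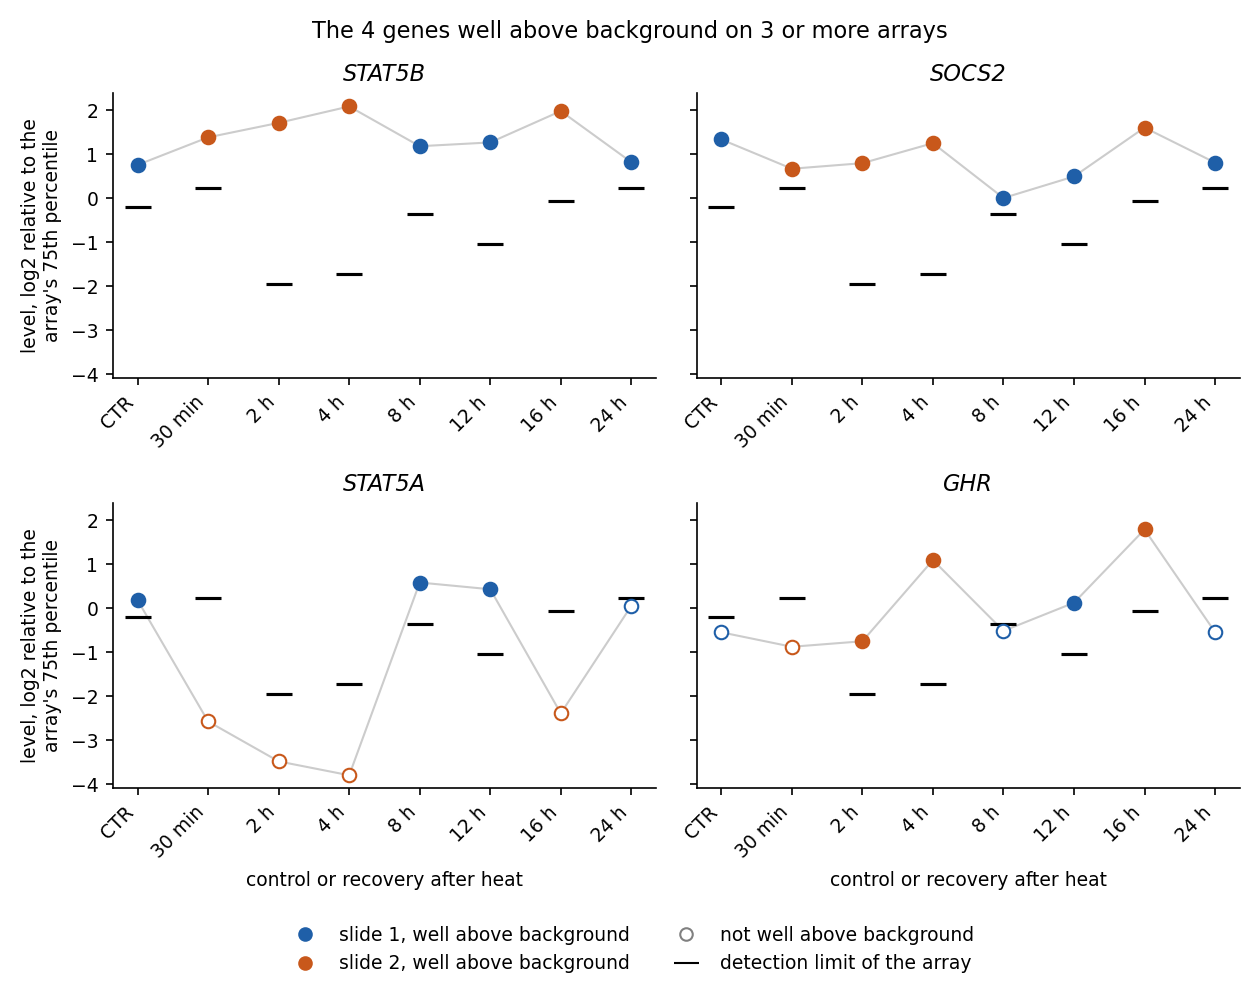
Log2 level relative to the array's 75th percentile for STAT5B, SOCS2, STAT5A (A_73_P250836) and GHR (A_73_P046456) in CTR and at each recovery time, coloured by slide, with filled points well above background, open points not, and dashes at the detection limits. STAT5B stood higher on all 4 slide 2 arrays, STAT5A was open on all of them, and GHR peaked at 4 h and 16 h.

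SOCS2, an inhibitor that binds the growth hormone receptor, was well above background on all 8 arrays. The probe A_73_103888 (chr5:26164441-26164500, plus strand) read 1.34 in CTR, and on the same slide 0.01 (8 h), 0.49 (12 h) and 0.81 (24 h). On slide 2 it read 0.67 (30 min), 0.80 (2 h), 1.25 (4 h) and 1.61 (16 h). CTR was the highest array of slide 1 and 8 h the lowest of all 8, and the slides overlapped, with means of 0.66 on slide 1 and 1.08 on slide 2. The change on this slide was -1.33 ± 0.28 (8 h), -0.84 ± 0.33 (12 h) and -0.53 ± 0.36 (24 h). Bright neighbours were lower too, by -0.38 at 8 h and -0.47 at 12 h, and differed by -0.004 at 24 h. After subtraction the changes were -0.95, -0.37 and -0.52. With normexp background correction the change was -0.68 at 8 h and -0.45 at 12 h. At 8 h, 0.564% of the 10280 probes bright on both arrays had a lower change than SOCS2.

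On slide 2, the SOCS2 change was -0.67 ± 0.30 at 30 min and -0.54 ± 0.35 at 2 h, and its bright neighbours changed by -0.41 and -0.56. After subtraction it was -0.26 at 30 min and 0.02 at 2 h. Normexp gave -0.27 at 2 h, within the spot error. The 30 min scanner intensities gave -0.19, but with a spot SD of 2.03 they cannot decide whether the 30 min change held. The changes at 4 h (-0.08 ± 0.36) and 16 h (0.27 ± 0.54) lay within it. Within slide 2 the 16 h level was above the 30 min level by 0.93 ± 0.54. SOCS2 did not reach 3-fold at any time point, and with the arrays' medians as the scale its change was 0.17 at 2 h and 1.01 at 4 h.

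**Figure D3:**
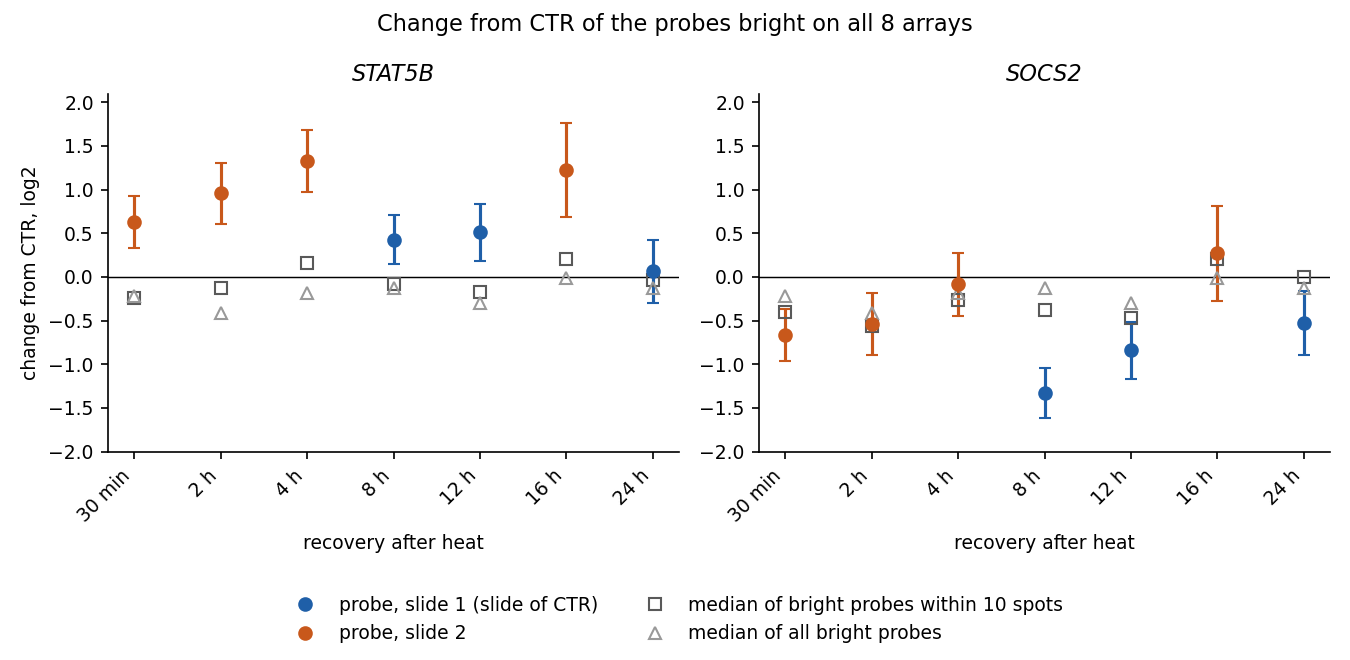
Log2 change from CTR of STAT5B and SOCS2 at each recovery time (points, bars 1 spot error, that of 30 min borrowed from CTR, coloured by slide), with the median change of bright probes within 10 spots (squares) and of all bright probes outside the dark stretch (triangles). STAT5B lay above both medians at every time point, and SOCS2 lay lowest at 8 h, at -1.33.

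CISH and SOCS3 were close to invisible. CISH, whose protein binds the phosphorylated receptors, was well above background at 2 h alone, where its probe A_73_120172 (chr22:50661539-50661598, plus strand) read -1.84 against a limit of -1.95. CTR read -2.51 with a limit of -0.20, so no fold follows from it. SOCS3, which inhibits JAK kinases and the gp130 receptors, was not well above background on any array. Its probe read -0.84 in CTR, its highest level, and -2.46 at 2 h, both below their limits.

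Counted at 3 fold, members were called in 3 of the 14 combinations of time point and direction. STAT5A was lower at 2 h (1 of 5 detected probes) and at 4 h (1 of 4), and GHR was higher at 16 h (1 of 4). A probe was detected where it was well above background in CTR or at the time point, and a dim side was set to its detection limit. With the neighbours' shift subtracted, an alternative chosen after seeing the data, none of the 3 reached 3-fold. Over all detected probes outside the dark stretch, 6.72% were at least 3-fold higher and 4.61% lower at 30 min, 4.6% higher and 7.76% lower at 2 h, and 2.31% higher and 5.19% lower at 4 h. At 16 h, 4.95% were higher and 4.51% lower. On the slide of CTR the shares were smaller, with 0.468% higher and 0.167% lower at 8 h. At 12 h they were 0.103% and 0.457%, and at 24 h 0.0709% and 0.611%. With 3 to 5 member probes detected, a single call is too few to set against these shares.

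The median change of the members bright on both arrays was -0.02 at 30 min and 0.21 at 2 h, then 0.62 at 4 h and 0.75 at 16 h, each over 2 probes, STAT5B and SOCS2. It was 0.40 at 8 h and 0.25 at 12 h over 3 probes with STAT5A, and -0.23 at 24 h over 2. The median over all probes bright on both arrays was between -0.41 and -0.01 at the 7 time points. The members' median was above that of all probes at 6 time points and below it at 24 h, where all probes were at -0.13.

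ELF5 was bright at 4 h and 16 h and dim elsewhere with all the probes that bear its name. Its 2 left-out probes are dark-stretch probes, so their CTR readings of -2.51 give no fold. A further probe, A_73_100912 (chr15:64733683-64733742, minus strand), lies outside the stretch, on an assembled transcript annotated as like human ELF5, 1955 bases from the nearer ELF5 probe. It does not carry the gene name and was looked up after the ELF5 values had been seen. It read -2.51 in CTR, and on the same slide -2.68 (8 h), -3.36 (12 h) and -2.08 (24 h). On slide 2 it read -0.77 (30 min), -0.27 (2 h), 5.23 (4 h) and 6.30 (16 h).

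That transcript was well above background on 3 of the 4 arrays of slide 2 and on none of slide 1. Against CTR's limit it was at least 43.0-fold higher at 4 h and at least 90.4-fold higher at 16 h. Within slide 2 it was 45.1-fold higher at 4 h than at 2 h, and 94.8-fold higher at 16 h than at 2 h. Bright neighbours differed from CTR by medians of 0.09 at 4 h and 0.11 at 16 h. The arrays on which ELF5 was bright were those with the highest milk protein sums. Their fibroblast sums were 13.7 (4 h) and 162 (16 h), against 1.45 at 2 h.

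**Figure D4:**
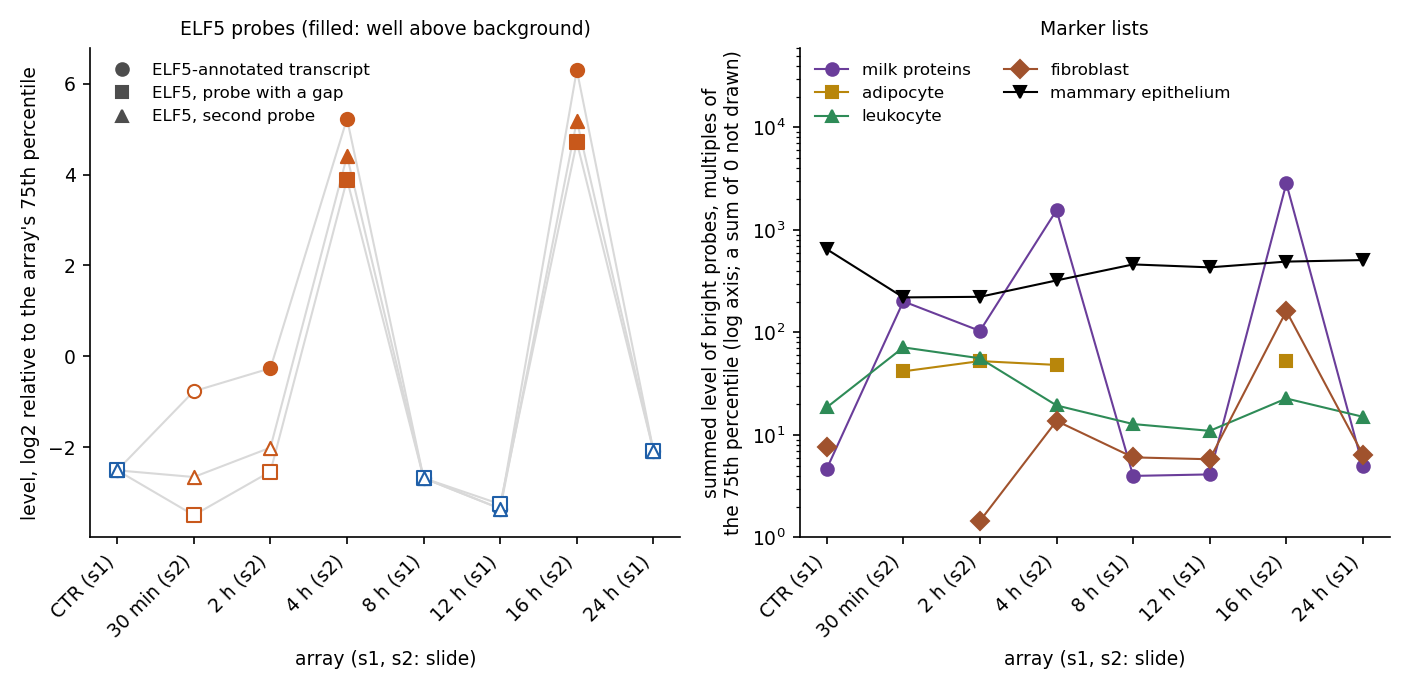
Left, log2 level of the ELF5-annotated transcript outside the dark stretch (circles) and of the 2 left-out ELF5 probes (squares, triangles), filled where well above background, by array and slide. Right, summed level of the bright probes of 5 marker lists on a log axis; ELF5 and the milk proteins both peaked on the 4 h and 16 h arrays.

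The rest of the pathway was read from 8 lists of other genes. Of 74 genes listed, 67 had a probe outside the dark stretch. At least 3-fold higher than CTR were 14 of 36 detected genes at 30 min, 9 of 46 at 2 h, 9 of 38 at 4 h and 12 of 33 at 16 h, where the shares of all detected probes were 6.72%, 4.6%, 2.31% and 4.95%. A gene was counted where any of its probes passed, so the gene counts and the probe shares are unlike measures. Probe shares of the lists are given below. With probes bright on both arrays only, these counts fell to 6, 3, 3 and 7, and median scaling raised those of 2 h and 4 h to 18. Fewer were lower: 0 (30 min), 3 (2 h), 1 (4 h) and 2 (16 h). On the arrays that shared CTR's slide, 0 of the 27 (8 h), 29 (12 h) and 27 (24 h) detected genes reached 3-fold in either direction.

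Milk proteins made up much of this. Of the probes of these lists, 33.3% were higher at 30 min and 21.4% without the milk proteins. Without the milk proteins the counts were 8 of 30 genes (30 min), 4 of 40 (2 h), 3 of 32 (4 h) and 6 of 27 (16 h). At 2 h the shares of probes were 15.7% and 9.38%, at 4 h 30.7% and 5.45%, and at 16 h 42.9% and 18.6%. The median change of the list probes bright on both arrays was 0.82, 0.39, 0.42 and 1.05 at those 4 times, and lay between -0.18 and 0.10 on the slide of CTR.

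Of the kinases, JAK2, the one that both receptors use, was well above background at 2 h alone and had no fold. TYK2 and JAK1, which serve cytokine receptors, were bright on every array. TYK2 was higher at 4 h by 2.32 and at 16 h by 2.27 with the probe A_73_P084206. The probe A_73_107438 of TYK2 gave 2.03 at 30 min and 1.90 at 2 h, but 0.39 at 4 h and 0.29 at 16 h, so the TYK2 probes disagreed. JAK1 was higher by 1.61 at 30 min and, with another probe, by 1.84 at 16 h. JAK3, a lymphoid kinase, was at least 3.50-fold higher at 30 min and at least 3.02-fold at 2 h. The leukocyte sums were highest on the same arrays, 71.5 at 30 min and 56.0 at 2 h. PTPRC and CD14 were at least 3-fold above CTR on both, CD3E at 30 min alone, and ITGAM was not well above background. PTPRC was also higher at 4 h (1.68) and 16 h (1.65), where JAK3 had no fold, and LYZ was lower at 4 h (-1.93).

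Few of the other regulators differed by 3-fold. STAT3 (A_73_104691) changed by 0.08 (30 min), 0.50 (2 h), 0.32 (4 h) and 1.54 (16 h), and on the slide of CTR by -0.62 (8 h), -0.74 (12 h) and 0.01 (24 h). The phosphatase PTPN1, which acts on JAK2, was higher by 2.31 at 30 min and 2.17 at 2 h. SOCS5 changed by -1.89 at 2 h. The adaptor SH2B3, a brake on JAK2, was at least 7.21-fold lower at 2 h and at least 6.17-fold lower at 4 h, from a CTR level of 0.90. None of the gp130 ligands and receptors reached 3-fold at any time point, with 2 of 9 genes well above background at 2 h, 1 at 4 h and 0 on the other arrays.

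The hormones themselves, PRL and GH1, and the growth hormone target IGF1 were not well above background on any array. IGF2 was lower than CTR at 2 h and higher at 16 h. A_73_104925 changed by -3.12 at 2 h, and A_73_P103116 by 3.02 at 16 h, from CTR levels of 1.34 and 0.16. These were the 2 probes of their list bright in CTR and at both times. Their median change was -2.34 at 2 h and 2.39 at 16 h. At 4 h it was 0.09, while another IGF2 probe, dim in CTR, was at least 3-fold higher, so the IGF2 probes disagreed there. The fibroblast sums were 1.45 at 2 h and 162 at 16 h, against 7.60 in CTR, each over the probes bright on its array. Fibroblast probes bright on both arrays changed by medians of -2.25 at 2 h and -0.42 at 16 h. What part fibroblast RNA has in the IGF2 values was not tested.

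Of the STAT5 target genes detected, 7 of 9 were at least 3-fold above CTR at 30 min, 5 of 11 at 2 h, 7 of 10 at 4 h and 7 of 9 at 16 h. All of these were milk protein genes except BCL6 at 30 min and CCND1 at 4 h and 16 h. By probe it was 12 of 21, 7 of 25, 21 of 25 and 20 of 23, against 6.72%, 4.6%, 2.31% and 4.95% of all detected probes. On the other slide it was 0 of 4 genes at every time point. CSN1S1, CSN1S2, CSN3, LALBA and PAEP were not well above background there, so the slides' counts cover unlike genes. These genes were detected only through slide 2 arrays and could not count as lower. List probes bright on both arrays changed by medians of 1.10 (30 min), 1.01 (2 h), 1.60 (4 h) and 1.86 (16 h). CSN2 (A_73_116854), which encodes beta-casein, was the 1 milk protein gene well above background in CTR, at 2.22, and was higher by 4.41 at 4 h and 5.76 at 16 h. This probe changed by 1.15 at 30 min and 0.48 at 2 h, short of 3-fold. CSN2 was called at those times through other probes, dim in CTR, so the CSN2 probes disagreed. CCND1, a cell cycle gene, was higher by 1.84 and 1.86 at these times. BCL6, a repressor that STAT5 is known to turn down, was higher by 1.81 at 30 min, and 1 of the 9 detected targets was lower at 16 h, BCL6. Of the mammary transcription factors, GATA3, a luminal factor, was higher by 2.35 at 16 h, and the glucocorticoid receptor gene NR3C1 by 1.82 at 30 min. ID2 was higher by 1.83 at 30 min and 1.95 at 2 h with A_73_P154442, and by 1.90 at 16 h with A_73_P043171, while A_73_P154442 was not well above background at 16 h. The NR3C1 probes also disagreed at 16 h, A_73_P085356 being at least 4.59-fold lower and A_73_118430 higher by 0.91. These lists hold no independent evidence about the members, and for all slide 2 arrays heat and slide cannot be told apart.

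**Figure D5:**
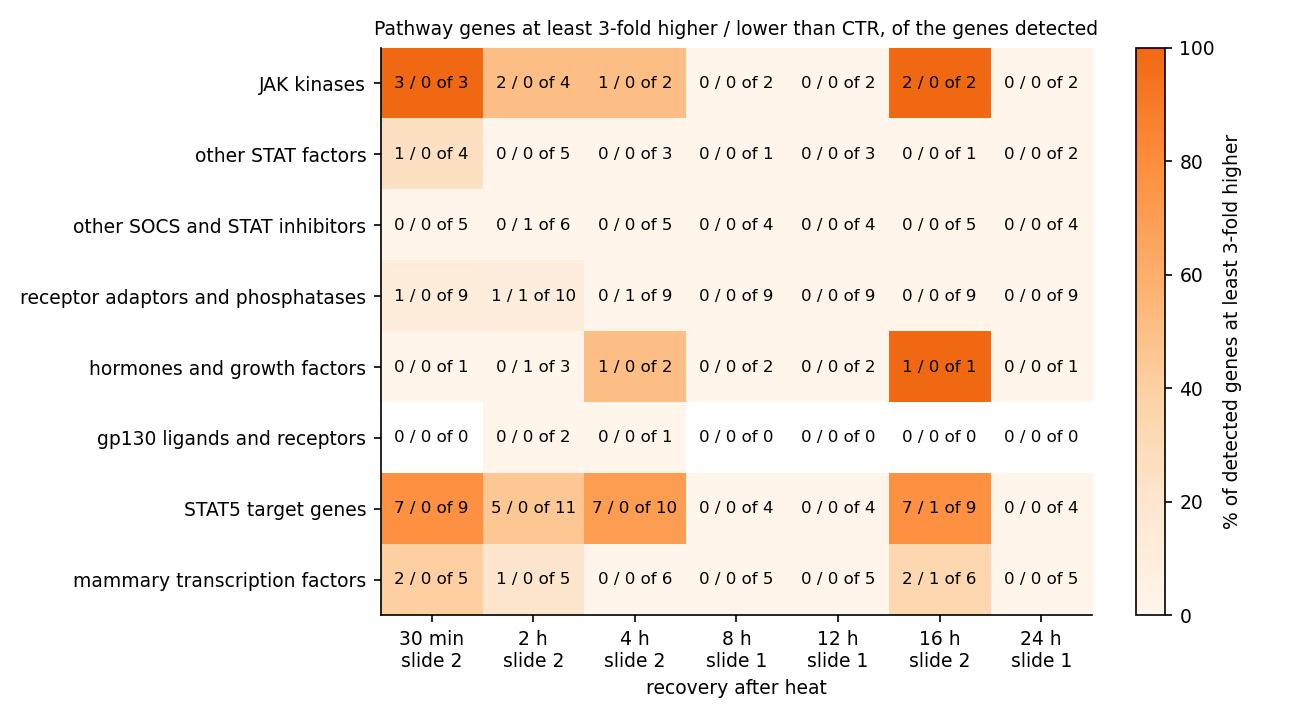
Number of genes at least 3-fold higher / lower than CTR, of the genes detected, for the 8 pathway lists at each recovery time, with the percentage higher as colour. All nonzero counts fall on the arrays of slide 2, and the STAT5 target genes hold the most.

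The genes whose 8 levels were most like those of each fully detected member were ranked among 6297 probes with a symbol. For STAT5B they were ELF3, an epithelial factor (r = 0.98), KDSR (r = 0.97) and PLEKHJ1 (r = 0.97). For SOCS2 they were CCNH (r = 0.97), COPE (r = 0.96) and PPP1CB (r = 0.95). These are descriptions over 8 arrays that share slides, and many probes share the slide pattern.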

How the data were processed

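The data were 8 Agilent bovine arrays hybridised with buffalo MEC RNA, 1 per condition, as deposited by the authors. Per the file headers the spot intensity was extracted with Feature Extraction 9.5.3.1. The authors' deposited log2 values, normalized to the 75th percentile, were used for 30 min as differences from CTR, since their values are centred for each probe. Their column medians ran from -1.04 to 0.56. Control spots and spots marked as outliers were left out, processed signals were put on the log2 scale relative to the 75th percentile, and spots of 1 probe were averaged. Slides were read from the file headers. A probe below background was set to the array's lowest well-above-background level, and at 30 min to the highest such limit of the other arrays (0.24). The fold threshold of 3 was the authors'. Repeated probes (50 on the array) gave the spot SD, pooled over those with repeated bright spots outside the dark stretch. At the time points after 30 min these numbered between 14 (24 h) and 24 (2 h). The change calculation was tested on simulated data. With 1 array per condition no test was made. Software was Python 3.11.15, numpy 2.4.6, pandas 2.3.3 and, for normexp, R 4.3.3 with limma 3.58.1.

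Named genes were every member, up to 5 genes per direction and list with the largest change of at least 3-fold well above background on both arrays, and the 3 probes most like each member bright on all arrays. Other genes named (JAK2, JAK3, STAT3, SH2B3, PRL, GH1, IGF1) were added after their values were seen. Members and lists were chosen with earlier results of these data known. Of the 8 members, 6 matched the buffalo RefSeq table by symbol, and its coordinates, on another build, were not used. Alternatives were normexp with an offset of 50, quantile, median and bright-probe scaling, deposited values throughout, 30 min scanner intensities, outlier spots kept, other filters on dim probes, a 2-fold threshold, dark probes kept and comparison within slides. Neighbour subtraction and the measured difference in place of the bound were chosen after seeing the data.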

Additional observations from a re-analysis of the deposited data

Results flagged for a closer look

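The 2 ELF5 probes that the member rule leaves out, because their rows and columns were dark in CTR, gave signal outside the comparisons of the report. The level of A_73_P347736 was 3.89 at 4 h and 4.71 at 16 h, and that of A_73_P034886 was 4.41 at 4 h and 5.18 at 16 h, on the log2 scale relative to the 75th percentile. Both probes were well above background on these arrays and on none of the other 6. In CTR both read -2.51, a reading from the dark stretch that sets no level, and at 8 h, 12 h and 24 h, where the same spots lay on other arrays of slide 1, they read between -3.36 and -2.08. What part the slide has in this signal cannot be told apart from heat.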

How the results depend on the processing

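No paired analysis was possible because each condition was a single array. Single changes of STAT5B, SOCS2, STAT5A and GHR, bounds included, moved at the time points after 30 min by less than the spot error with quantile scaling, the 75th percentile of bright probes, deposited values and outlier spots kept. Normexp moved 4 of 20 by more, and median scaling 9 of 20. The 30 min changes are deposited differences that no scaling here could move, so they were not counted. No called change of a member reversed its sign with neighbours subtracted. Under other scalings none could, because the called changes are bounds, and no bound is given where the sign would differ. Counts of 3-fold members were less stable, since each rests on 1 probe. STAT5A at 2 h fell to 0 with normexp, median scaling, probes bright on both arrays or neighbours subtracted, and to 0 at 4 h with the last 3 of these. GHR at 16 h fell to 0 with probes bright on both arrays or neighbours subtracted. Median scaling gave 1 higher at 2 h and 2 at 4 h. It moved the members' median to 0.91 (2 h), 1.71 (4 h) and -0.67 (24 h), while the median of all probes moved to 0.29, 0.91 and -0.56. With no filter on dim probes, lower counts were 3 (30 min and 4 h), 8 (2 h), 2 (12 h) and 1 (16 h), and 1 was higher at 4 h. Measured differences gave 1 lower at 30 min and 16 h and 1 higher at 4 h. At 2-fold, 2 were higher at 4 h and 16 h and 1, SOCS2, lower at 8 h. Keeping the dark ELF5 probes gave 2 higher at 4 h and 3 at 16 h. With the 30 min scanner intensities, whose spot SD was 2.03, SOCS2 changed by -0.19 at 30 min. Among pathway genes, median scaling gave 18 higher at 2 h and 4 h, 1 higher at 8 h and 0 lower at 4 h. Probes bright on both arrays gave 3 higher at 2 h and at 4 h, 6 at 30 min and 7 at 16 h, and 0 lower at 4 h and 16 h. Against the mean of the other arrays of its slide, STAT5B differed by -0.54 (30 min), -0.10 (2 h), 0.39 (4 h) and 0.25 (16 h), and SOCS2 by -0.87 (8 h), -0.22 (12 h) and 0.20 (24 h). The cause was not tested except where fewer probes were counted by construction. Detection limits from -1.95 at 2 h to 0.24 at 24 h bound what dim members can show.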

Other observations

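Probes on transcripts annotated as like a member, but without its gene name, were also read for whether they were well above background. A predicted STAT5B transcript (A_73_P206297) and an assembled SOCS3 transcript (A_73_119322) were below that mark on all 8 arrays. SOCS1, an inhibitor of JAK kinases, was not well above background in CTR and read 1.36 at 30 min and 1.02 at 2 h with A_73_115229, and its bounds against CTR were at least 2.95-fold and at least 2.33-fold higher. At 16 h, where the leukocyte sum was 22.7, the SOCS1 bound was 2.08-fold. What part leukocyte RNA has in these values was not tested.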
